A study of Mus musculus with 6 samples.

Results

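RAB GTPases are the small GTP-binding proteins that give each intracellular membrane its identity and direct vesicles from a donor to a target compartment. Their transcripts were examined in cultured mouse osteoclasts. Protein-coding genes were taken whose symbol is Rab followed by a number and by at most 1 letter and 1 digit, as in Rab7 or Rab27a. This rule uses no expression difference, but it was set with earlier results of these data known. The name matched 59 of the 55573 genes counted, and 52 of them had at least 10 counts summed over the 6 libraries.

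The RNA came from bone marrow-derived macrophages (BMMs) of 10-week-old male mice, which received 30 ng/ml M-CSF and 10 ng/ml RANKL over 4 days to become osteoclasts. Libraries were made from 3 control cultures and from 3 cultures of Ctsk Cre/WT;Rosa Hes1 mice, called Rosa-Hes1 here. All mice of the cross carried the Rosa [STOP]Hes1 allele, in which a loxP-flanked STOP cassette precedes HES1-IRES-GFP at the Rosa26 locus, and the labels nevertheless call the controls wild type. Cre is knocked into the Ctsk locus, so that only Rosa-Hes1 cells carried Cre and the altered Ctsk allele, and the presence of Cre and the induction of HES1 cannot be told apart. The parent lines were on ICR and C57BL/6 backgrounds. Excision depends on Ctsk expression, and whole cultures were lysed, so that precursors without recombination may be present in a Rosa-Hes1 library. The comparison asked which transcripts differed in osteoclasts that overexpressed HES1.

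A RAB protein cycles between a GTP-bound form, which recruits effectors to a membrane, and a GDP-bound form, which can be held soluble in the cytosol. Guanine nucleotide exchange factors start the cycle and GTPase-activating proteins end it. Attachment to the membrane requires lipid groups that are added to cysteines at the end of the protein. In osteoclasts, traffic along the endosomal and lysosomal routes inserts proton pumps into the ruffled border and releases proteases onto bone, and RAB7 and RAB3D are among the members known from that process.

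The coding ends of the 4 members that differed between the groups, and of the nearest relative of each, are shown. The cysteine codons for lipid attachment sit there, and the sequences of relatives bear on whether their reads could be confused in counting. Each line gives the last 30 bases of the coding sequence, 5′ to 3′, with the stop codon at the end and every cysteine codon in capitals, from GENCODE M21 on GRCm38.
Rab38: gtcagcTGCtctggcTGTgccaaatcctag
Rab32: acaacaaagcccaggtcccagTGCTGCtga
Rab22a: ccatcggagccaaagcgaagcTGCTGCtga
Rab31: agcttgcaagccagccgtcggTGCTGCtga
Rab4a: gctccaagtgcacaggagTGTggcTGCtag
Rab4b: gccgtggcccctcagcccTGTggcTGCtga
Rab7: aaggcctccgcagaaagcTGCagtTGTtga
Rab7b: ccaggccagccaaagagcagaTGCTGCtga

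The Rab38 end lies in exon 3 at chr7:88490731-88490760 on the plus strand, and that of Rab32 in exon 3 at chr10:10546302-10546331 on the minus strand. Rab22a ends in exon 7 at chr2:173701090-173701119 (plus) and Rab31 in exon 7 at chr17:65654406-65654435 (minus). Rab4a ends in exon 7 at chr8:123834101-123834130 (plus) and Rab4b in exon 7 at chr7:27172652-27172681 (minus). The end of Rab7 is in exon 6 at chr6:88000435-88000464 (minus) and that of Rab7b in exon 6 at chr1:131711668-131711697 (plus).

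The 4 ends of the members that differed do not share 1 arrangement. Rab4a and Rab7 have cysteine codons at the last and the third from last positions, as 16 of the 52 members do. Rab22a has them at the last 2 positions, an arrangement of 14 members. Rab38 has its last cysteine codon at the fourth from last position and none after it, as 14 members do, and its relative Rab32 has both at the very end. The remaining 8 members have paired cysteine codons within the last 4 positions but not at the end.

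The coding sequences of relatives differed along their length. Coding identity was 74.8% between Rab4a and Rab4b, 70.8% between Rab38 and Rab32, 67.7% between Rab22a and Rab31 and 62.2% between Rab7 and Rab7b. The highest identity of any member with its nearest relative was 77.6%, between Rab1a and Rab1b. In the last 27 bases before the stop codon the pairs differed at 12 (Rab4a), 21 (Rab38), 13 (Rab22a) and 15 (Rab7) positions. Annotated overlaps with other genes were a separate matter. Exons of Rab4b shared 65.0% of their bases with Gm21983 on the same strand, and Rab7 shared 7.82% with the antisense gene Gm5577, whereas Rab38, Rab32, Rab4a, Rab31 and Rab7b shared none. No source used here states whether counting used strand. If it did not, reads within that stretch may have been counted for neither gene, which was not tested. Gm5577 had 32 counts summed over the 6 libraries, beside 5219 to 7494 for Rab7 in each library.

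Libraries held 13038362 to 15956331 counts in genes. Hes1 was counted 7, 9 and 4 times in the control libraries and 75, 74 and 95 times in Rosa-Hes1, an 11.8-fold difference (log2 fold change 3.57, SE 0.30, adjusted p = 0.00477, edgeR). On the first principal component, Rosa-Hes1 library 2 (3.29) lay nearer to the controls (-32.6 to -14) than the other Rosa-Hes1 libraries did (28.9 and 29.2). The osteoclast label fitted the markers: 12 of 12 were expressed, and their summed level was 11249 to 14400 CPM (counts divided by the TMM-adjusted library size and put on a shared scale) in control and 17763 to 20702 CPM in Rosa-Hes1, with 10 of 12 higher and 0 lower (6 higher with no filter on low counts, 2 to 10 with 1 library left out). Of 7 macrophage markers 1, Cd68, was higher, while 5 had log2 fold changes below 0 (median over the 7, -0.09). Their summed level was 4428 to 5571 CPM in control and 4810 to 5839 CPM in Rosa-Hes1. Markers with fewer than 10 counts over the 6 libraries are not in these sums. Among the 4 B cell markers 3 were left out, and the 1 tested was at most 0.364 CPM in any library. None of the 3 erythroid markers reached 10 counts. Neutrophil markers (72.2 to 133 CPM), the 1 T and NK cell marker tested of 4 (3.03 to 7.18 CPM) and the 3 osteoblast and stroma markers tested of 4 (56.3 to 250.2 CPM) overlapped between the groups. None of them was called. The part of the osteoclast marker difference in each result below was not tested. In bulk RNA, fewer cells of a type and less RNA per cell cannot be told apart.

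Osteoclasts expressed a broad set of RAB genes at widely different levels. Levels were compared between genes as CPM per kilobase of annotated exon, averaged over the 6 libraries. Rab7, which directs late endosomes to lysosomes, stood at 171.8, and Rab5c, which acts in fusion of early endosomes, at 171.5. Next came Rab1b at 123.2 and Rab1a at 92.1, both of transport from endoplasmic reticulum (ER) to Golgi, and Rab32 at 89.4, a RAB of lysosome-related organelles. With the longest transcript as the length, the order of these 5 was the same.

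The order of neighbouring genes was not the same in both groups. In controls Rab5c (176 ± 7.91, SD, n = 3) was above Rab7 (157 ± 7.85), and in Rosa-Hes1 Rab7 (187 ± 5.89) was above Rab5c (167 ± 6.72), on the per-kilobase scale. In every control library Rab32 (98.5 ± 9.56) was above Rab1a (87.4 ± 5.22), and in every Rosa-Hes1 library Rab1a (96.7 ± 4.92) was above Rab32 (80.2 ± 5.24). This second swap depended on the length used. With the longest transcript as the length, Rab1a averaged 123.7 over the 6 libraries and Rab32 97.3. Rab1a was then above Rab32 in controls too. Together the 5 genes made up 45.6% to 48.0% of the RAB signal per kilobase in each library. From 41 to 44 members reached 1 CPM in a library, and 17 to 19 reached 100 CPM.

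**Figure D1:**
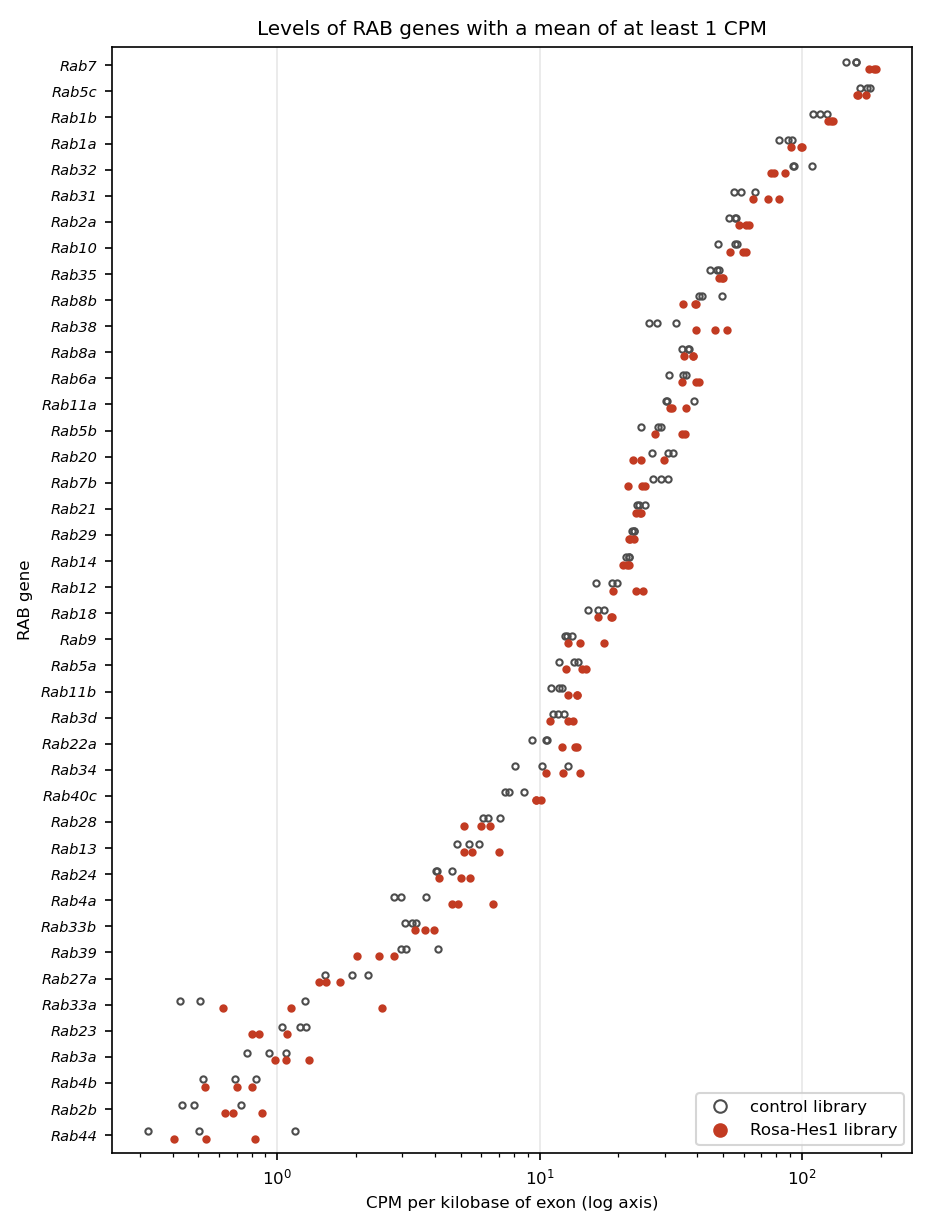
CPM per kilobase of exon (log axis) of the 42 RAB genes averaging 1 CPM or more, ordered by their mean. Open circles are control libraries and filled circles Rosa-Hes1 libraries, 3 of each. Rab5c and Rab7 lead at about the same mean. The groups do not overlap for 12 of the 42 genes (28.6%), Rab38 among them, beside 37.3% of all genes at that level.

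The name rule left 7 genes with too few counts to test. Rab17, Rab25, Rab39b, Rab3b and Rab6b had 1 to 5 counts over all 6 libraries. Rab3c and Rab9b had 0, which allows a level of up to 0.0343 CPM (3 counts over the 6 libraries, counting error only). Just above the minimum were Rab37 with 10 counts, Rab26 with 11 and Rab42 with 16.

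The RAB transcripts as a whole differed little between the groups. Summed over the 52 members they were 4058, 4296 and 4531 CPM in control and 4674, 4284 and 4695 CPM in Rosa-Hes1 (4295 ± 236 and 4551 ± 232, SD, n = 3). The groups overlapped, since Rosa-Hes1 library 2 lay below control libraries 2 and 3.

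Of the 52 RAB genes 4 rose in Rosa-Hes1 osteoclasts, namely Rab38, Rab22a, Rab4a and Rab7, and 0 fell (edgeR, Benjamini-Hochberg adjusted p under 0.05 over all genes tested). This is 7.69% of the members, beside 8.25% of all 16954 genes tested, of which 5.85% were higher and 2.41% lower. When only genes averaging 1 CPM or more were counted, the share was 9.52% of 42 members and 11.0% of all 12494. At an unadjusted p under 0.05, 11 members were higher and 5 lower, together 16 beside 25.7% of all genes. DESeq2 called 4 members higher and 2 lower, the latter being Rab32 and Rab7b, in a fit that called 12.8% of all genes. The share of RAB genes called was near the background.

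Rab38 carries cargo to lysosome-related organelles and is best known from melanosomes. It measured 41.2, 52.4 and 44.4 CPM in control and 73.8, 62.2 and 81.5 CPM in Rosa-Hes1. The lowest Rosa-Hes1 library exceeded the highest control. Its level rose 1.57-fold, from 46.0 ± 5.80 to 72.5 ± 9.72 CPM (SD, n = 3; log2 fold change 0.65, SE 0.12, adjusted p = 0.0176, edgeR).

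Rab22a acts on early endosomes and in the recycling of cargo taken up without clathrin. It measured 67.5, 77.0 and 76.1 CPM in control and 98.5, 87.5 and 100.4 CPM in Rosa-Hes1, with no overlap. The rise was 1.30-fold, from 73.5 ± 5.27 to 95.5 ± 6.95 CPM (log2 fold change 0.38, SE 0.08, adjusted p = 0.0301, edgeR).

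Rab4a returns receptors rapidly from early endosomes to the plasma membrane. Its level was low, at 6.49, 5.20 and 4.88 CPM in control and 11.7, 8.16 and 8.58 CPM in Rosa-Hes1, and Rosa-Hes1 library 1 was the highest. The groups did not overlap, and the rise was 1.72-fold, from 5.53 ± 0.855 to 9.47 ± 1.92 CPM (log2 fold change 0.78, SE 0.19, adjusted p = 0.0395, edgeR). Counts behind these values were 66 to 177 per library.

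Rab7 was the most abundant of the 4 and its relative change the smallest of them. It measured 385, 419 and 422 CPM in control and 494, 471 and 499 CPM in Rosa-Hes1, without overlap. It rose 1.19-fold, from 409 ± 20.5 to 488 ± 15.4 CPM (log2 fold change 0.26, SE 0.06, adjusted p = 0.0474, edgeR). In CPM its difference was the largest of the 4.

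The calls depended on which libraries entered the fit. Rab38 lost its call when control library 1 (adjusted p = 0.0702, edgeR), control library 3 (0.0688), library 1 of Rosa-Hes1 (0.0794) or its library 3 (0.0548) was left out, and Rab22a (0.0597 to 0.119), Rab4a (0.0691 to 0.154) and Rab7 (0.0907 to 0.155) were not called when any library other than Rosa-Hes1 library 2 was left out. The log2 fold changes stayed positive in each of these fits.

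The nearest relatives of the called members, by coding sequence, did not pass the test. Rab32, which shares with Rab38 its exchange factor and its route to lysosome-related organelles, measured 217, 218 and 256 CPM in control and 178, 183 and 202 CPM in Rosa-Hes1. All 3 control libraries were above all 3 Rosa-Hes1 libraries (log2 fold change -0.30, SE 0.09, adjusted p = 0.0701, edgeR). The difference was called in 3 of the 14 alternatives, namely with no filter on low counts, with DESeq2 and with the replicate number as a block. It was called in 0 of the 6 fits with 1 library left out (adjusted p = 0.0846 to 0.224, edgeR). Rab7b, a RAB of traffic from late endosomes to the trans-Golgi network, measured 134, 125 and 143 CPM in control and 117, 100.5 and 114 CPM in Rosa-Hes1. Again the control libraries were the higher ones (log2 fold change -0.28, SE 0.08, adjusted p = 0.0746, edgeR). The Rab7b difference was called in 2 of the 14 alternatives, with no filter on low counts and with DESeq2. With 1 library left out it was called in 0 fits (adjusted p = 0.0888 to 0.184, edgeR).

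Rab31, which moves cargo between the trans-Golgi network and endosomes, measured 211, 224 and 253 CPM in control and 313, 248 and 284 CPM in Rosa-Hes1. Rosa-Hes1 library 2 lay below control library 3, and the log2 fold change of 0.30 (SE 0.10) had an adjusted p of 0.107 in edgeR. Rab4b, a recycling RAB like Rab4a, was measured at 1.34 ± 0.297 CPM in control cultures and 1.34 ± 0.272 CPM in Rosa-Hes1 (SD, n = 3; log2 fold change -0.01, SE 0.30, adjusted p = 0.991). Its 14 to 24 counts per library limit the precision of this value. In addition, 65.0% of its exon bases are shared with Gm21983 on the same strand, which had 0 counts. Reads there may have been counted for neither gene, so that the Rab4b level may be too low, which was not tested.

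**Figure D2:**
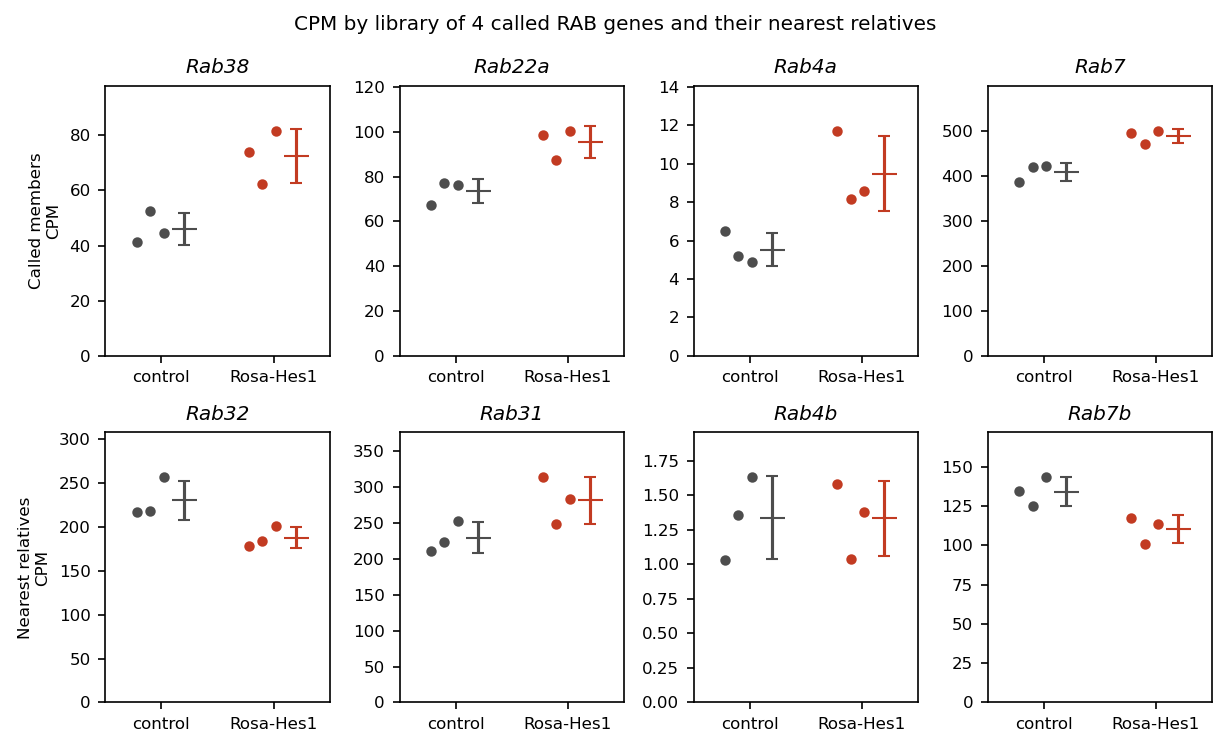
CPM by library of Rab38, Rab22a, Rab4a and Rab7 (upper row) and of the nearest relative of each (lower row). Points are the 3 libraries of each group, and the horizontal mark and bar are the mean and SD; every axis starts at 0. The groups lie apart in all 4 upper panels, and for Rab32 and Rab7b the control libraries are the higher ones.

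The balance within each pair was described as the share of the pair's counts that came from the called member. The first gene of each pair was selected by its call in the same libraries, so that the shares are a description. For the log2 ratios of the 4 pairs, an exact two-sided permutation test over the 6 libraries gave p = 0.1 to 0.3 (0.2 to 0.3 adjusted over the 4 pairs). Its smallest possible p at this size is 0.1, so that it could not pass for any pair. Rab38 made up 15.9%, 19.4% and 14.8% of the pair Rab38 and Rab32 in control and 29.3%, 25.3% and 28.8% in Rosa-Hes1. The groups did not overlap, and the ratio of Rab38 to Rab32 was 1.93-fold higher in Rosa-Hes1. Rab32 remained the more abundant gene in every library.

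Rab7 made up 74.2%, 77.1% and 74.7% of the pair Rab7 and Rab7b in control and 80.8%, 82.4% and 81.5% in Rosa-Hes1, again without overlap. For Rab4a beside Rab4b the mean share was 80.2% ± 5.69 in control and 87.6% ± 1.32 in Rosa-Hes1 (SD, n = 3). These groups overlapped, since control library 1 stood at 86.3% and Rosa-Hes1 library 3 at 86.1%. Reads of Rab4b lost to its overlap with Gm21983 could raise these Rab4a shares, which was not tested. The share of Rab22a beside Rab31 was 24.3% ± 1.26 in control and 25.4% ± 1.27 in Rosa-Hes1, with overlap.

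**Figure D3:**
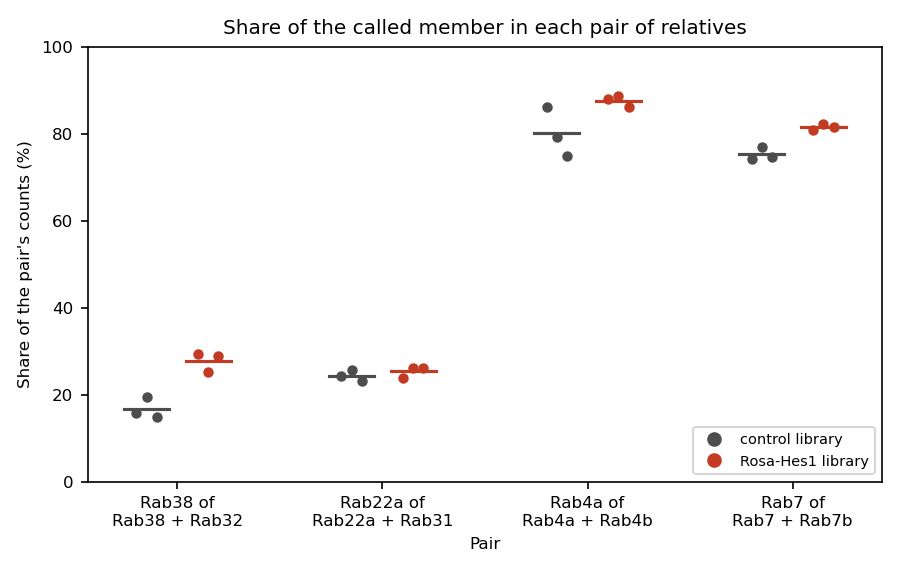
Share (%) of each pair's counts that came from Rab38, Rab22a, Rab4a or Rab7, by library, with the group means as lines. The control and Rosa-Hes1 libraries lie apart for Rab38 (16.7% and 27.8% on average) and Rab7 (75.3% and 81.6%) and overlap for Rab22a and Rab4a.

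Over all 52 members the log2 fold changes ranged from -1.16 to 1.59. Their median was 0.15, and that of all genes tested was -0.01. In 36 members the log2 fold change was above 0 and in 16 below it, beside 48.6% of all genes above 0, and with DESeq2's size factors or upper-quartile scaling these counts were again 36 and 16. The groups did not overlap for 15 members (10 higher and 5 lower in Rosa-Hes1), which is 28.8% of them beside 31.2% of all genes tested. The 5 lower ones were Rab32, Rab7b, Rab39, Rab8b and Rab37, of which Rab39, Rab8b and Rab37 were named after their values were seen. The extremes of the range belonged to scarce transcripts, Rab37 with a mean of 0.116 CPM at the lower end and Rab40b with group means of 0.238 and 0.716 CPM at the upper, and neither was called (adjusted p = 0.423 and 0.117, edgeR).

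**Figure D4:**
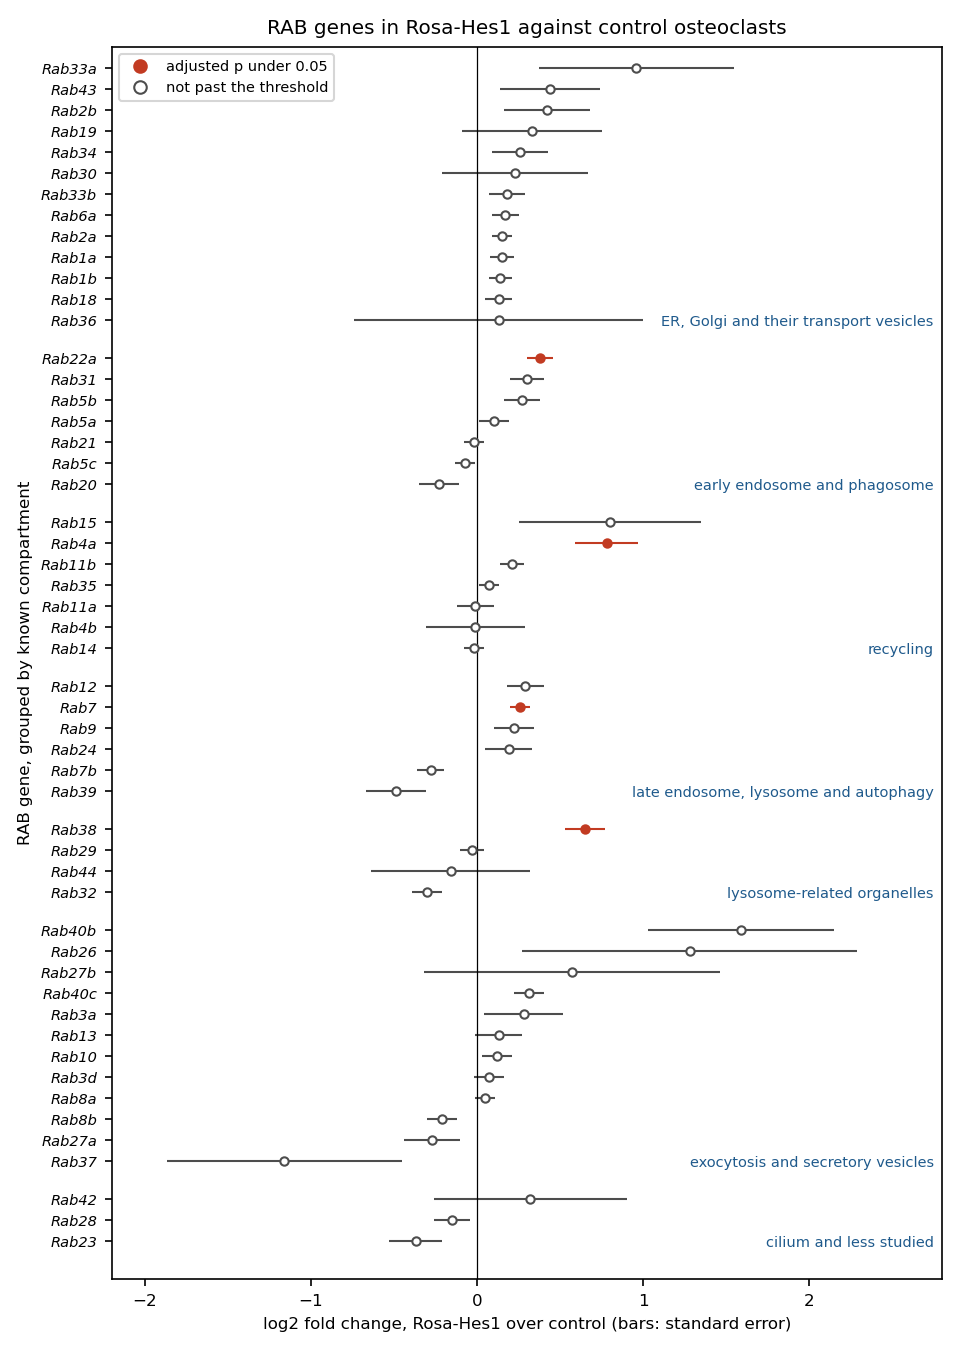
Log2 fold change, Rosa-Hes1 over control, of the 52 RAB genes with the standard error as bars, grouped by the compartment each is known for. Filled points mark the 4 genes with an adjusted p under 0.05. All 13 members of the ER and Golgi group lie above 0, between 0.13 and 0.96, and none of them is called. In that group Rab19, Rab30, Rab36 and Rab43 average under 1 CPM.

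The members were then grouped by the compartment they are known for. The 13 genes of the ER, the Golgi and their transport vesicles were Rab1a, Rab1b, Rab2a, Rab2b, Rab6a, Rab18, Rab19, Rab30, Rab33a, Rab33b, Rab34, Rab36 and Rab43. None was called by edgeR or in any of the 14 alternatives, and 1 had an unadjusted p under 0.05. All 13 log2 fold changes were above 0 (median 0.18), also with DESeq2's size factors and upper-quartile scaling, while 12 were with limma-voom and 11 to 13 with 1 library left out. Rab19, Rab30, Rab36 and Rab43 averaged under 1 CPM. Rab43 shared 75.35% of its exon bases with Gm45140 on the same strand. On the opposite strand Rab2b shared 59.31% with Gm43766, Rab6a 18.99% with Mrpl48 and Rab33b 18.68% with Gm38160. Reads in shared stretches may have been counted for neither gene, for the opposite strand only if counting ignored strand, which was not tested. The filterByExpr filter on low counts kept 10 of the group, all above 0. The highest value, 0.96 for Rab33a, had an SE of 0.59, and Rab36 (0.13) had an SE of 0.87. Rab1b measured 250.5, 266 and 283 CPM in control and 300.0, 286 and 294 CPM in Rosa-Hes1, which did not overlap (log2 fold change 0.14, SE 0.07, adjusted p = 0.232, edgeR). Rab1a measured 311, 335 and 350.0 CPM in control and 376, 346 and 380 CPM in Rosa-Hes1, with overlap (log2 fold change 0.15, SE 0.07, adjusted p = 0.240). The members share libraries and are not independent of each other, so that the common sign was given no test.

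The 7 genes of early endosomes and phagosomes were Rab5a, Rab5b, Rab5c, Rab20, Rab21, Rab22a and Rab31. Rab22a was called, and the log2 fold changes ran from -0.23 to 0.38 (median 0.10), 4 above 0 and 3 below. Rab5c measured 386 ± 17.4 CPM in control cultures and 367 ± 14.7 CPM in Rosa-Hes1 (SD, n = 3; log2 fold change -0.07, SE 0.06, adjusted p = 0.557, edgeR).

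The 7 recycling genes were Rab4a, Rab4b, Rab11a, Rab11b, Rab14, Rab15 and Rab35. Rab4a was called, and the range was -0.02 to 0.80 (median 0.07). Rab11a and Rab11b, both of the recycling endosome, differed from each other in their values. Rab11a measured 91.1, 92.0 and 116 CPM in control and 95.5, 93.9 and 108 CPM in Rosa-Hes1 (log2 fold change -0.01, SE 0.11, adjusted p = 0.984, edgeR). Rab11b measured 74.5, 68.1 and 72.7 CPM in control and 85.0, 85.2 and 78.9 CPM in Rosa-Hes1, without overlap (log2 fold change 0.21, SE 0.07, adjusted p = 0.0963). The difference between these changes was not tested.

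The 6 genes of late endosomes, lysosomes and autophagy were Rab7, Rab7b, Rab9, Rab12, Rab24 and Rab39. Their log2 fold changes had a median of 0.20 and ran from -0.49 to 0.29, with Rab7 called, beside 8.25% of all genes tested. Groups did not overlap for 3 of the 6, Rab7 (higher) and Rab7b and Rab39 (both lower). Over all genes tested 31.2% did not overlap, and so small a group gives no result on this share. Rab9, which returns receptors from late endosomes to the trans-Golgi network, measured 22.5 ± 0.695 CPM in control cultures and 26.1 ± 4.35 CPM in Rosa-Hes1 (SD, n = 3; log2 fold change 0.22, SE 0.12, adjusted p = 0.314, edgeR). Rab24 reads were uncertain, because 62.4% of its exon bases lie opposite the abundant gene Prelid1.

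The 4 genes of lysosome-related organelles were Rab29, Rab32, Rab38 and Rab44. Rab38 was the only one of the 4 with a log2 fold change above 0, and Rab32 had the lowest, -0.30. Rab44, a large atypical RAB that is expressed in osteoclasts, was scarce and scattered, at 5.90, 2.54 and 1.63 CPM in control and 2.70, 4.18 and 2.04 CPM in Rosa-Hes1. Its log2 fold change was -0.16 with an SE of 0.48 (adjusted p = 0.878, edgeR). Without control library 1 the log2 fold change was 0.50.

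The 12 genes of exocytosis and secretory vesicles were Rab3a, Rab3d, Rab8a, Rab8b, Rab10, Rab13, Rab26, Rab27a, Rab27b, Rab37, Rab40b and Rab40c. None was called by edgeR or in any of the 14 alternatives, and 3 had an unadjusted p under 0.05. The median was 0.13, with 9 values above 0 and 3 below. Rab3d, which is needed for a normal ruffled border, measured 49.5 ± 2.54 CPM in control cultures and 52.0 ± 5.17 CPM in Rosa-Hes1 (SD, n = 3; log2 fold change 0.07, SE 0.09, adjusted p = 0.682, edgeR). Rab27a, a RAB of secretory lysosomes, measured 7.35 ± 1.37 and 6.10 ± 0.569 CPM (log2 fold change -0.27, SE 0.17, adjusted p = 0.382). Rab13, which takes cargo from the trans-Golgi network and recycling endosomes to the cell surface, measured 12.3 ± 1.22 and 13.6 ± 2.20 CPM (log2 fold change 0.13, SE 0.14, adjusted p = 0.622). For these genes the groups overlapped. Rab23, Rab28 and Rab42, of the cilium or less studied, were not called and ran from -0.37 to 0.32.

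In each group 1 library was the lowest for most RAB genes. Of the 42 members averaging 1 CPM or more, control library 1 was the lowest of its group for 30 (71.4%), beside 41.8% of all genes at that level. Rosa-Hes1 library 2 was the lowest of its group for 30 (71.4%) as well, beside 38.8% of all genes. Control library 3 was the highest control for 27. The coefficient of variation over the 3 libraries had a median of 8.63% in control (1.26% to 67.1%) and 8.55% in Rosa-Hes1 (1.96% to 68.8%). The libraries that were low for RAB genes were thus 1 of each group. Leaving out Rosa-Hes1 library 2 raised the number of RAB genes called from 4 to 7 of 51 tested, with Rab5b, Rab12 and Rab31 added, in a fit that called 16.1% of all genes. Leaving out library 2 of the controls gave 1 (Rab38), with 4.94% of all genes called. Leaving out any other single library gave 0, with 1.61% to 3.14% of all genes called, so that the RAB counts moved with the background.

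The proteins that regulate or read RAB GTPases were examined as 4 lists with 155 genes tested, and 30 of them rose and 5 fell (22.6% called, beside 8.25% of all genes tested and 11.0% of those averaging 1 CPM or more). Their median log2 fold change was 0.06. The osteoclast markers were higher in the same libraries, and the part of that difference in these calls was not tested. The lists were also chosen with earlier results of these data known.

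Among 50 exchange factors 6 rose and 2 fell (16.0%, median 0.05). Rin3, an exchange factor for the RAB5 subfamily, went from 49.3 ± 3.22 to 83.4 ± 7.38 CPM (SD, n = 3; log2 fold change 0.76, SE 0.09, adjusted p = 0.00550, edgeR). St5, a DENN-domain protein that activates RAB13, had the largest rise of these, from 31.0 ± 4.65 to 72.2 ± 15.6 CPM (log2 fold change 1.22, SE 0.17, adjusted p = 0.00948). Rab3ip, the RAB8 exchange factor also called Rabin8, went from 16.7 ± 1.01 to 26.4 ± 2.65 CPM (log2 fold change 0.66, SE 0.10, adjusted p = 0.0110). The groups of all 3 genes were apart. The 2 that fell, named after their values were seen, were Dennd4a, an exchange factor for RAB10 (log2 fold change -0.49), and the RAB3A-interacting protein gene Rab3il1 (-0.71).

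Of the 39 GTPase-activating proteins 11 rose and 1 fell (30.8%, median 0.14). The number higher was 3 to 5 when control library 1, control library 3 or the first or the third Rosa-Hes1 library was left out. Those fits called 1.61% to 3.14% of all genes, beside 8.25% with all libraries. Tbc1d24 went from 56.5 ± 4.41 to 93.1 ± 6.67 CPM (SD, n = 3; log2 fold change 0.72, SE 0.08, adjusted p = 0.00559, edgeR). Sgsm3 went from 63.8 ± 6.45 to 97.5 ± 4.11 CPM (log2 fold change 0.61, SE 0.08, adjusted p = 0.00741). Tbc1d4, known as AS160 from insulin-regulated glucose transporter traffic, went from 23.1 ± 0.722 to 36.0 ± 3.13 CPM (log2 fold change 0.64, SE 0.09, adjusted p = 0.00758). The gene that fell was Tbc1d31 (log2 fold change -0.46), named after its value was seen. Whether the shares of the 4 partner lists differ was not tested.

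Of 47 effectors 10 rose and 2 fell (25.5%, median 0.04). Micall1, which organizes tubular recycling endosomes, measured 37.6, 42.3 and 39.8 CPM in control and 90.6, 70.9 and 82.4 CPM in Rosa-Hes1 (log2 fold change 1.03, SE 0.10, adjusted p = 0.00513, edgeR). Rilpl1, a RILP-like protein, went from 17.2 ± 1.95 to 35.0 ± 3.49 CPM (SD, n = 3; log2 fold change 1.02, SE 0.11, adjusted p = 0.00520). Mical1, an actin-oxidizing enzyme that RABs activate, went from 17.0 ± 1.31 to 31.5 ± 4.18 CPM (log2 fold change 0.89, SE 0.12, adjusted p = 0.00661). The 2 that fell, named after their values were seen, were Osbpl1a, whose long form binds RAB7 (log2 fold change -0.54), and Lrrk1, a kinase that phosphorylates RAB7 and is needed for osteoclast resorption (-0.29). Plekhm1, a RAB7 effector whose loss causes osteopetrosis, was also named after its values were seen and rose from 214 ± 20.5 to 302 ± 21.9 CPM (log2 fold change 0.49, SE 0.09, adjusted p = 0.0152).

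Of the 19 genes of the HOPS, CORVET and exocyst tethers and their associates, 3 rose and 0 fell (15.8%, median 0.06). At an unadjusted p under 0.05, 7 were higher and 1 lower, beside 25.7% of all genes in either direction. DESeq2 called 5 higher and 0 lower and limma-voom 4 higher and 0 lower, in fits that called 12.8% and 13.5% of all genes. None was called when control library 1, control library 3 or the first Rosa-Hes1 library was left out. Those fits called 2.23%, 2.37% and 1.61% of all genes. Vps39, a HOPS subunit that binds RAB7, measured 120, 142 and 137 CPM in control and 238.5, 181 and 242 CPM in Rosa-Hes1 (log2 fold change 0.73, SE 0.12, adjusted p = 0.0122, edgeR). Vps18, of the core shared by HOPS and CORVET, went from 113 ± 5.55 to 149 ± 5.47 CPM (SD, n = 3; log2 fold change 0.40, SE 0.07, adjusted p = 0.0125). Vipas39, a partner of a VPS33 homolog, went from 95.6 ± 3.74 to 130.0 ± 11.7 CPM (log2 fold change 0.44, SE 0.08, adjusted p = 0.0160).

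Several partner calls also depended on single libraries. Rin3, St5, Tbc1d24, Sgsm3, Tbc1d4, Micall1, Rilpl1 and Mical1 were called in each of the 6 fits that left out 1 library, whereas Rab3ip and Dennd4a were called in 5 of 6, Rab3il1 and Plekhm1 in 4, Vps39, Vps18 and Osbpl1a in 3, Vipas39 in 2, and Tbc1d31 and Lrrk1 in 1, which was the fit without Rosa-Hes1 library 2. The number of partners higher ranged from 10 without Rosa-Hes1 library 1 to 44 without Rosa-Hes1 library 2, and was 13 and 14 when control library 1 or 3 was left out, 24 for control library 2 and 16 for the third Rosa-Hes1 library. The share of all genes called ranged from 1.61% without Rosa-Hes1 library 1 to 16.1% without Rosa-Hes1 library 2.

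**Figure D5:**
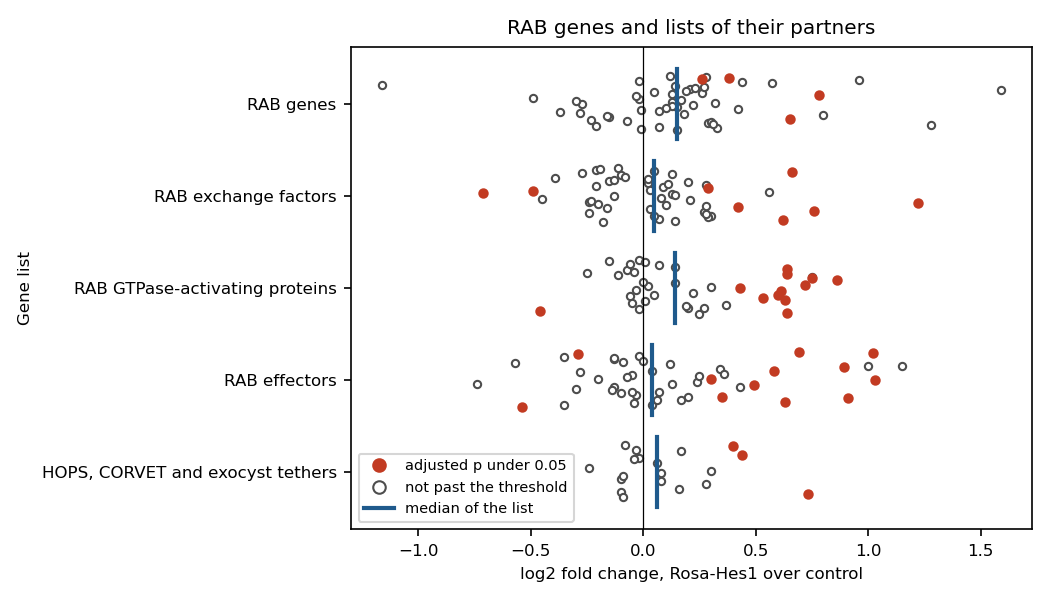
Log2 fold change, Rosa-Hes1 over control, of each tested gene of the RAB family and of 4 lists of RAB partners. Filled points have an adjusted p under 0.05, and the vertical bar is the median of the list. Filled are 12 of 39 GTPase-activating proteins (30.8%) and 4 of 52 RAB genes (7.69%). Of all genes tested 8.25% were called, and of those averaging 1 CPM or more 11.0%. Whether the lists differ was not tested.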

How the data were processed

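Per the labels, polyadenylated RNA was sequenced as paired reads with a stranded kit in 1 pool. The authors trimmed reads with Sickle, aligned them with HISAT2 2.1.0, used SAMtools 1.9, removed PCR duplicates with Picard and counted genes with HTSeq-count, with no strand setting stated. The submitters' processing notes give GRCm38, and all gene identifiers are from mouse. The authors deposited raw counts per gene and library. Reads outside genes (17.4% to 18.1%) were left out. Symbols, positions and exon lengths came from GENCODE M21, which named 55480 of 55573 identifiers.

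Genes reaching 10 counts in total over the 6 libraries were tested in edgeR 4.0.16 (R 4.3.3; TMM, robust quasi-likelihood, no covariate), with Benjamini-Hochberg adjustment over all tested genes and a threshold of 0.05. The study's own test was DESeq2 with unnamed covariates. CPM values are TMM-normalized. Alternatives used DESeq2 1.42.0, limma 3.58.1 (voom with quality weights), other scalings and filters, the replicate number as a block, and each library left out. Coding sequences were aligned with Biopython 1.88. The test was tried on simulated data with known changes.

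RAB genes named are those called, the 5 most abundant per kilobase, members known from osteoclasts and the nearest relatives of called members; from each partner list, the 3 with the smallest adjusted p. A further list of RAB partners is not reported here. Members and lists were chosen with earlier results of these data known. The labels call the libraries biological replicates without stating whether each is a separate mouse, so that p-values measure the spread between these libraries.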

Additional observations from a re-analysis of the deposited data

How the results depend on the processing

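The 4 RAB genes higher in Rosa-Hes1 were Rab22a, Rab38, Rab4a and Rab7 also with DESeq2's size factors, upper-quartile scaling, filterByExpr, non-robust dispersions and DESeq2, and Rab31 was added with no filter and with limma-voom. RAB genes lower numbered 2 with no filter and 2 with DESeq2 (Rab32 and Rab7b each time). With 1 library left out, RAB genes higher ranged from 0 to 7 and lower stayed at 0; partners higher ranged from 10 to 44 and lower from 0 to 7. All genes called numbered 1399 (991 higher, 408 lower), against 2178 with DESeq2 (1302 and 876) and 2294 with limma-voom (1377 and 917), and 265 to 2646 with 1 library left out. Replicate numbers did not pair the libraries: deviations from the group means correlated at 0.001, -0.162 and 0.379 for numbers 1, 2 and 3, and control replicate 1 correlated best with Rosa-Hes1 replicate 2 (0.477). With the replicate number as a block, 1050 genes were called, RAB genes higher were 2 (Rab38 and Rab4a) and lower 1 (Rab32), and partners were 23 higher and 3 lower. Log2 fold changes near 0 changed sign with limma-voom for Rab4b (0.06) and Rab11a (0.01), and with 1 library left out they ranged from -0.16 to 0.15 for Rab4b, from -0.08 to 0.11 for Rab11a, from -0.01 to 0.22 for Rab13 and from -0.49 to 0.50 for Rab44. With the longest transcript as the length, levels of Rab7, Rab5c, Rab1b and Rab1a per kilobase were 208, 191, 146 and 124. The cause of these differences was not tested. Counts under 25 per library, as for Rab4b, limit what can be detected.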
